A study of Mus musculus with 12 samples.

Results

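The 41 collagen chain genes that the peeled outer layers of the embryonic mouse heart express were compared between the base of the great arteries and the ventricles. They were chosen by name, as the rows of the deposited table named as Col, digits, a and digits, with a mean value of at least 1 over the 12 libraries. Of 43 such rows among 17637 genes, 41 reached that mean. Col6a4 (mean 2.22) and Col2a1 (2.01) were the members nearest to the limit, and Col28a1 (0.327) and Col19a1 (0.252) fell below it and were not tested. The rule uses names and mean level, not the difference between layers.

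Artery samples were mesothelium, the thin epithelium covering the arterial base, peeled together with the tissue just beneath. Ventricle samples were epicardium with the subepicardium under it. Both kinds came from untreated wild-type embryos of the outbred CD1 stock at stage E16.5, with 6 libraries per layer. Embryos of a litter were pooled, and each of litters 1 to 6 supplied both layers, so that artery 1 and ventricle 1 share litter 1 and single embryos were not resolved.

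Collagens are secreted proteins whose chains wind into trimeric helices, and the chains are grouped by what the trimers build. Fibrillar collagens form the banded fibres that give tissue its tensile strength, FACIT collagens sit on the surface of those fibres, and beaded filament collagens (type VI) link them to cells. Type IV forms the sheet of basement membranes, and transmembrane collagens stay anchored in the cell surface. In the embryonic heart, collagen is laid down in the subepicardium, the valves and the walls of the great arteries.

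Values are the authors' normalized signal, scaled to library size, coordinates are GRCm38, and differences are log2 differences, artery minus ventricle, of log2(value + 1) with their standard error. The shallowest libraries were artery 1 (6.77 M reads) and artery 6 (7.97 M), and the other 10 had at least 16.45 M. The 12 epicardial and mesothelial markers were all detected in every library, with summed values of 1739 to 3535 in artery and 2902 to 5495 in ventricle. Artery 4 was the highest artery library on that sum, and the other 5 artery libraries ended at 2262. Artery 6 stood apart in the sum of 8 blood markers, at 18889, against 3312 to 7006 in the other artery libraries and 1953 to 4045 in ventricle libraries. That sum was mostly globin RNA (Hbb-bs 7466 and Hba-a1 6789 in artery 6). The white cell markers Csf1r (62.4) and Ptprc (7.92) were not raised in artery 6, against 69.0 to 136 and 5.44 to 8.07 in the other artery libraries.

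Marker levels of other cell types moved with the layers. Over all genes tested, 12.2% passed as higher in artery and 11.8% as lower. All 12 epicardial and mesothelial markers and 7 of 10 heart muscle markers were lower in artery, while 8 of 10 smooth muscle and 7 of 10 fibroblast markers were higher. The summed smooth muscle markers ran from 2218 to 4231 in artery and from 886 to 1378 in ventricle. Fibroblast markers summed to between 3800.0 and 5706 in artery and to between 2120 and 2906 in ventricle, and 10 heart muscle markers to between 3565 and 13112 in artery and to between 11336 and 29518 in ventricle. Of 5 cartilage markers 3 were higher in artery, with sums of 88.6 to 145 in artery and 32.7 to 53.3 in ventricle. Acan was the largest term of the artery sums, at 38.4 to 85.1 in artery and 0.457 to 1.87 in ventricle. Sox9, the largest in ventricle, overlapped (11.2 to 36.7 in artery and 24.3 to 40.8 in ventricle). Matn1, Matn3 and Snorc of the cartilage list were not among the deposited genes. Of 10 endothelial markers 3 were lower and 0 higher, and the sums overlapped (862 to 1347 in artery and 1161 to 1447 in ventricle). Of 7 Schwann cell markers 6 were lower and 1 higher (sums of 18.2 to 34.9 in artery and 41.7 to 52.6 in ventricle), and of 5 tendon markers 1 was higher and 1 lower (148 to 271 in artery and 212 to 334 in ventricle). Blood markers were higher for 2 of 8 and lower for 1. No marker of these lists was at 0 reads in all libraries, although Foxd3 and Tnmd had 0 in at least 1. The part of these cell types in the collagen differences was not tested. In such bulk layers a smaller number of cells of a type and less RNA per cell cannot be told apart.

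The 3 most abundant chains, Col1a1, Col3a1 and Col1a2, did not pass the test, and the largest differences were those of Col24a1, Col9a1, Col5a3 and Col6a3, all higher in artery. Of the 41 members, 14 were higher in artery, 5 were lower and 22 did not pass adjusted p 0.05 (limma without a litter term, Benjamini-Hochberg over 14779 genes). That is 46.3% of the members, against a background of 24.1% of all genes tested. By direction, 34.1% of members were higher in artery, against 12.2% of all genes, and 12.2% were lower, against 11.8% of all genes, so the lower share was near the background. These shares of all genes are also the background for the counts by class given below. The median difference was 0.30 over the members and -0.04 over all genes. A difference of at least 1 on the log2(value + 1) scale, called 2-fold here, was found for 8 of the called chains. Their share was 19.5% of members against 6.51% of all genes, with 7 higher (background 3.81%) and 1 lower (background 2.7%). The added 1 shrinks differences at low values. By the ratio of means, the called chains Col11a2 (2.23) and Col6a4 (2.14, ventricle over artery) also exceeded 2, but they fell short on that scale. Groups did not overlap for 10 members, or 24.4%, against 11.9% of all genes, and of these 9 were higher (background 7.61%) and 1 was lower (background 4.25%). The count of lower chains was 2 without litter 2, 3 without litter 3, 2 without litter 5 and 9 without artery 4. In the same order, the count of higher chains was 10, 10, 11 and 13. Calls over all genes moved as well, from 3556 to 2623, 2069, 2396 and 4080. The count of lower chains thus depended on single litters or libraries, as did the count over all genes. With the litter as a block, 14 chains were higher and 6 lower, as Col12a1 and Col8a2 gained the call and Col6a6 lost it.

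**Figure D1:**
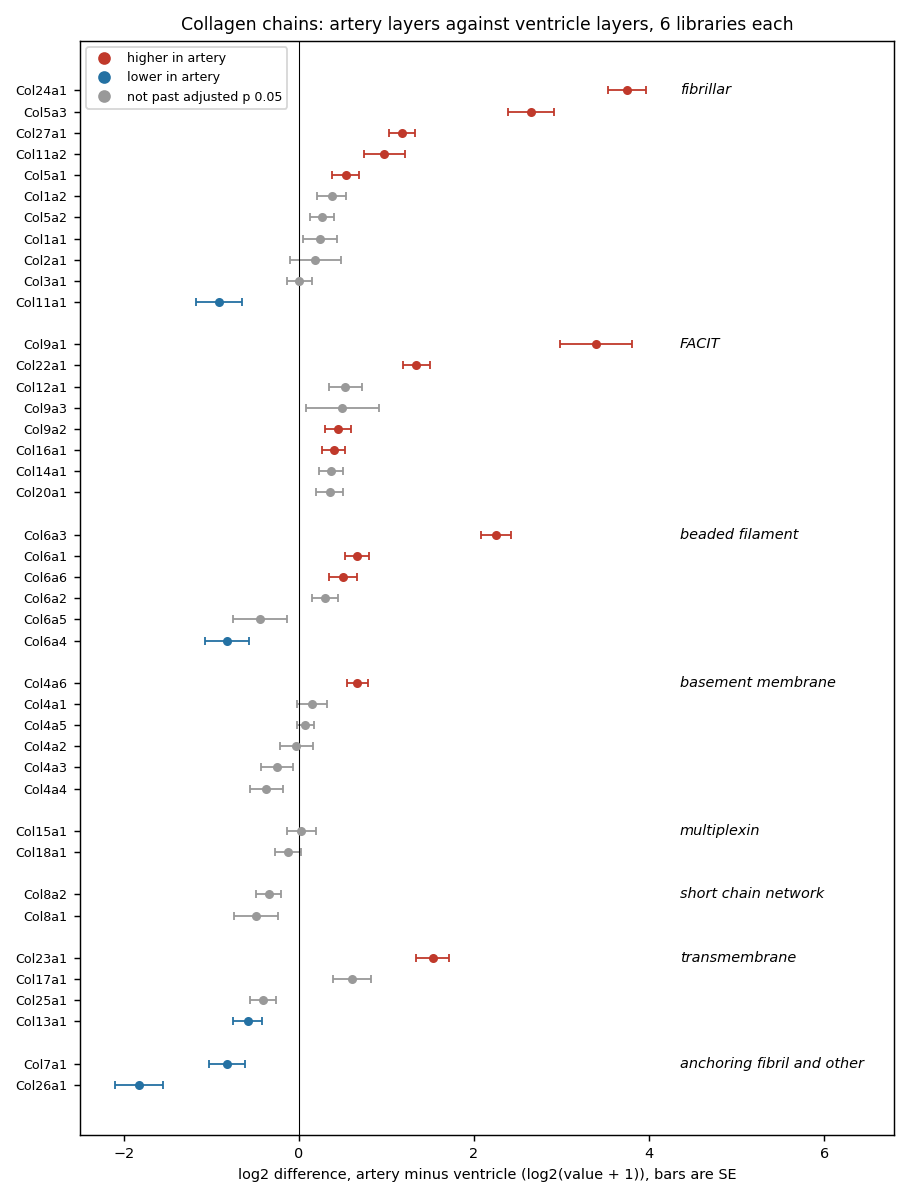
Log2 difference of each of the 41 collagen chains, artery minus ventricle, on the log2(value + 1) scale, with bars for the standard error (6 libraries per group), arranged by class. Red chains (14) were higher in artery, blue chains (5) lower, and grey chains (22) did not pass; Col24a1 and Col9a1 lie farthest to the right and Col26a1 farthest to the left.

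Type I collagen, the main fibre of connective tissue, and type III collagen, the finer fibre of vessel walls and soft organs, made up most of the collagen RNA. Col1a1, Col1a2 and Col3a1 together held 74.9 ± 1.33% of the summed collagen value of artery and 77.8 ± 1.65% of that of ventricle (mean ± SD of 6 libraries, as throughout). The 41 chains took 6.15 ± 1.14% of all reads in artery and 5.22 ± 0.727% in ventricle. Per kilobase of the longest coding transcript, Col1a1 was at 3147 ± 834 in artery and 2624 ± 504 in ventricle, Col3a1 at 2903 ± 505 in artery and 2873 ± 291 in ventricle, and Col1a2 at 2356 ± 490 in artery and 1805 ± 327 in ventricle. Col1a1 and Col3a1 differed by less than their spread in both layers. The next chain in artery by this measure, Col6a1, was at 390 ± 72.1 per kilobase in artery and 245 ± 29.2 in ventricle.

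None of these 3 chains passed the test. Col1a1, the α1 chain of type I, had values of 18911, 18941, 24187, 23909, 13492 and 12546 in artery 1 to 6, against 16332, 14057, 14829, 21031, 12259 and 14849.9 in ventricle 1 to 6. The groups overlapped widely, with artery 3 and 4 highest and artery 5 and 6 among the lowest. Its difference was 0.24 ± 0.19 (adjusted p = 0.41, limma). Col1a2, the α2 chain, had 11436, 13052, 16437, 14672, 10324 and 9662 in artery and 10371, 8412, 9047, 12835, 8062 and 9184 in ventricle. It was higher within 6 of 6 litters, yet the groups overlapped and the difference of 0.38 ± 0.16 had adjusted p = 0.116 (limma), although DESeq2 called it. Col3a1, the single chain of type III, had 13830.1, 17163, 19694, 18902, 14121 and 13191 in artery and 16836, 13370.5, 16842, 18019, 15234 and 15607 in ventricle. Its groups lay on the same range, 3 of 6 litters were higher in artery, and the difference was 0.00 ± 0.14.

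**Figure D2:**
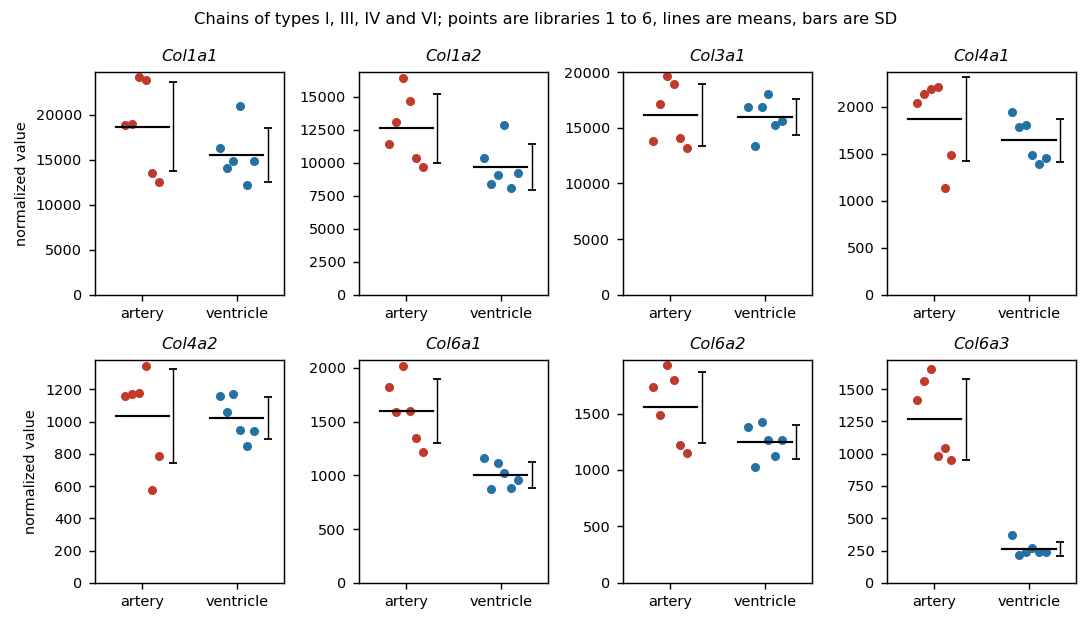
Normalized value (axis from 0) of the chains of types I, III, IV and VI in each library, artery left and ventricle right, with lines for the mean and bars for the SD of 6 libraries. The groups overlap for Col1a1, Col1a2, Col3a1, Col4a1, Col4a2 and Col6a2, while Col6a1 and Col6a3 are higher in every artery library than in every ventricle library.

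Of the 11 fibrillar chains, those of types I and III included, 5 were higher in artery and 1 was lower. Col24a1 (ENSMUSG00000028197, chr3:145292472-145552011) is a minor fibrillar chain known from developing bone and eye of the mouse. It had values of 61.0, 89.2, 103, 46.3, 88.2 and 52.8 in artery 1 to 6, against 7.09, 3.81, 4.73, 4.41, 3.71 and 3.02 in ventricle 1 to 6. Every artery library was far above every ventricle library. The ratio of means was 16.48 and the difference 3.75 ± 0.21 (adjusted p = 4.81e-08, limma), which was the largest among the members. It passed under all 21 alternative settings, and was 3.69 within lane 2 and 4.07 within lane 1.

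Col5a3 (ENSMUSG00000004098, chr9:20770050-20815067) is the rarer chain of type V, the collagen that starts fibrils and limits their width. Its values were 101, 119.6, 138, 53.8, 86.2 and 81.7 in artery 1 to 6 and 14.8, 9.25, 11.1, 29.6, 11.2 and 13.96 in ventricle 1 to 6. The groups did not overlap, and both libraries of litter 4 lay closest to the other group. The ratio of means was 6.45 and the difference 2.65 ± 0.26 (adjusted p = 7.57e-06, limma). Within litter 4 the difference was 0.84, against 2.47 to 3.56 within the other litters. The main type V chains moved less. Col5a1 was at 2688 ± 612 in artery and 1826 ± 202 in ventricle (difference 0.53 ± 0.15, adjusted p = 0.0222, limma), and that call was lost without litter 2, 3 or 4. Its partner Col5a2 was at 1223 ± 221 in artery and 1012 ± 128 in ventricle and did not pass (0.26 ± 0.13).

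The promoters of Col24a1 and Col5a3 are shown because these fibrillar chains had the largest differences in the class. The windows are from RefSeq (GRCm38.p6, 250 bases before to 50 after the start site, gene strand), and 32 of 41 members had at least 1. Both strands were searched for the CCAAT box, the TATA box (letters TATAAA), the GC box (letters GGGCGG) and the CArG box. The letters TGACGTCA were added after the windows had been read. Capitals mark matches.
Col24a1 (chr3:145292222-145292521, plus strand): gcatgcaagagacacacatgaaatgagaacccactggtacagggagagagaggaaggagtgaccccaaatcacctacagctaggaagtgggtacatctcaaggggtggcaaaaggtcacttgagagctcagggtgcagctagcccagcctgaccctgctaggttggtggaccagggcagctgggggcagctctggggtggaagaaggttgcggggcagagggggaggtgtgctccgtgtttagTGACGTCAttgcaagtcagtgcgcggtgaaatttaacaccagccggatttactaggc
Col5a3 (chr9:20815018-20815317, minus strand): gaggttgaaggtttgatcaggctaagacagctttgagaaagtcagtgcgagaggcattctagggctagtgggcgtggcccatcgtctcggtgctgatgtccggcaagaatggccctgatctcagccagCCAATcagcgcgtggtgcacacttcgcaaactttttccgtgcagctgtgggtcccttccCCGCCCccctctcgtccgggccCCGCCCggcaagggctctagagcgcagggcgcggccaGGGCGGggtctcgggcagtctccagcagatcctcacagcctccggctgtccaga
The Col24a1 window held TGACGTCA, first base 7 before the start site, and none of the other letters, and TGACGTCA stood in 1 of 35 member windows and in 1.79% of all 32851 windows. The Col5a3 window held CCAAT at 122 bases before the start and GGGCGG at 3 places. Over the members, GGGCGG was in 65.7% of windows, against 35.7% of all windows, with a median GC content of 60% in member windows and 52.7% in all windows. CCAAT was in 37.1% of member windows, against 37.4% of all windows, TATAAA in 11.4%, against 13.6%, and the CArG box in 2.86%, against 1.63%. A match describes letters and not a bound site.

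Col27a1 (ENSMUSG00000045672, chr4:63214004-63334991), a fibrillar chain of cartilage, had 130.4, 160.5, 187, 127, 191 and 114 in artery and 54.9, 57.3, 70.2, 88.9, 69.0 and 56.4 in ventricle. The groups did not overlap, and the difference was 1.18 ± 0.15 (adjusted p = 9.46e-05, limma). Both chains of type XI, which nucleates fibrils in cartilage and other tissues, passed in opposite directions. Col11a2 was at 11.5 ± 4.65 in artery and 5.13 ± 1.46 in ventricle, higher by 0.98 ± 0.23 (adjusted p = 0.00803, limma). Col11a1 was at 34.1 ± 17.4 in artery and 59.5 ± 7.80 in ventricle, lower by -0.92 ± 0.26 (adjusted p = 0.0208, limma). Its lowest library was artery 1 at 13.995, while artery 4 at 65.5 lay within the ventricle range of 46.1 to 69.0. The Col11a1 call was lost without litter 2, 3 or 5. Col2a1, the main fibre of cartilage, was detected at a low level, 2.15 ± 0.992 in artery and 1.88 ± 1.34 in ventricle. Its difference of 0.19 ± 0.29 lay between -0.01 and 0.43 when 1 litter, artery 1 or artery 4 was left out. It was -0.40 within lane 2 and 1.09 within lane 1, neither past the test, so its sign was not stable.

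**Figure D3:**
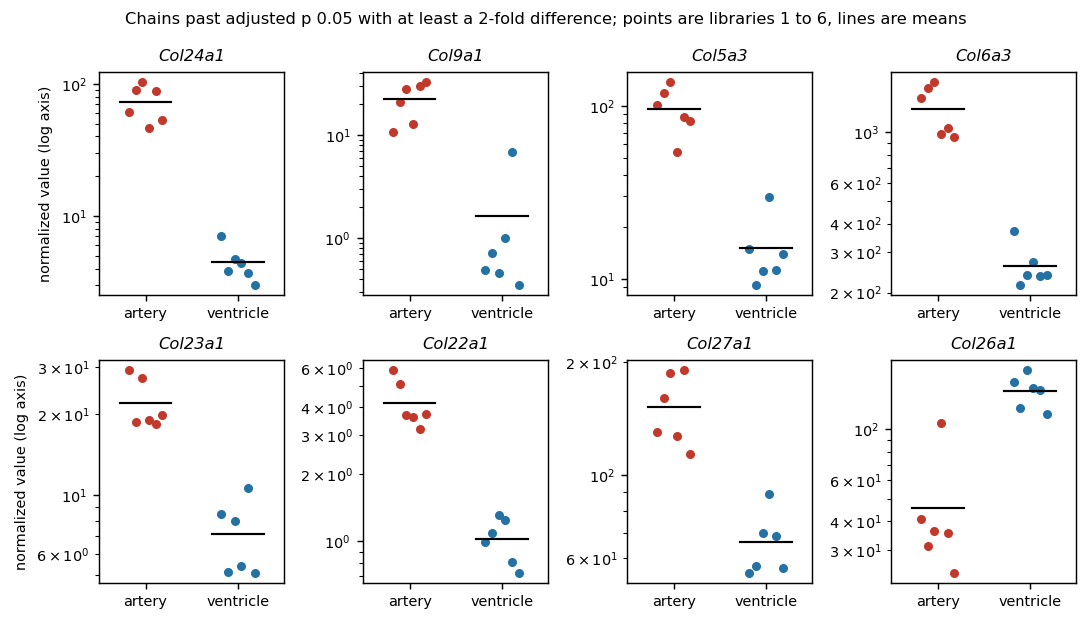
Normalized value (log axis) of the 8 chains past adjusted p 0.05 with at least a 2-fold difference, one point per library, artery left and ventricle right, lines for the mean of 6. The groups do not overlap for any of these 8 chains, although artery 4 for Col26a1 (106) lies close to the lowest ventricle library (116).

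FACIT chains were higher in artery or did not pass. Of 8 tested, 4 were higher and 0 lower, with a median difference of 0.47. Col9a1 (ENSMUSG00000026147, chr1:24177610-24252684) is a chain of type IX, which decorates cartilage fibrils. It had 10.7, 20.8, 27.8, 12.9, 30.0 and 32.7 in artery 1 to 6, against 0.484, 0.719, 0.457, 1.00, 6.77 and 0.351 in ventricle 1 to 6. Ventricle 5 was far above the other ventricle libraries and still below every artery library. In reads, the gene had 73 to 512 per artery library, 121 in ventricle 5 and 7 to 16 in each of the other 5 ventricle libraries. The difference was 3.40 ± 0.41 (adjusted p = 4.79e-05, limma), and 3.68 without litter 5. Within lane 1 it was 3.71 and just missed the threshold (adjusted p = 0.0505, limma). Of 5 cartilage markers, 3 also passed as higher. The proteoglycan Acan averaged 65.4 in artery and 1.04 in ventricle (difference 5.01), and the link protein Hapln1 18.4 in artery and 5.22 in ventricle (1.62), whereas the cartilage regulator Sox9 was at 25.9 in artery and 31.9 in ventricle and did not pass.

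The other type IX chains did not follow Col9a1 in size. Col9a2 was at 44.8 ± 10.4 in artery and 32.4 ± 5.15 in ventricle, higher by 0.45 ± 0.15 (adjusted p = 0.0412, limma). That call was lost in 5 of 8 omissions, each of 1 litter, artery 1 or artery 4. Col9a3 was at 6.60 ± 3.64 in artery and 4.47 ± 3.35 in ventricle and did not pass (0.50 ± 0.42). Its highest ventricle library was ventricle 5 at 10.6, the same library that was high for Col9a1.

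Col22a1 (ENSMUSG00000079022, chr15:71795795-72034227), a FACIT of tissue junctions such as those of muscle and tendon, had 5.87, 5.11, 3.70, 3.60, 3.19 and 3.73 in artery and 0.996, 1.09, 1.31, 1.25, 0.809 and 0.725 in ventricle. All artery libraries lay above all ventricle libraries, though levels were low, and the difference was 1.34 ± 0.15 (adjusted p = 2.76e-05, limma). An unnamed gene model, Gm16308, overlaps exons of Col22a1 on the opposite strand. Col16a1 was at 562 ± 98.2 in artery and 423 ± 53.9 in ventricle, higher by 0.40 ± 0.13 (adjusted p = 0.0383, limma), a call lost in 6 of 8 omissions. Col12a1 and Col14a1, which coat type I fibrils, did not pass. Col12a1 was at 221 ± 61.1 in artery and 151 ± 32.9 in ventricle (0.53 ± 0.19, adjusted p = 0.057, limma), higher within 6 of 6 litters, and with the litter as a block it passed (adjusted p = 0.0374, limma). Col14a1 was at 1256 ± 243 in artery and 965.0 ± 128 in ventricle (0.37 ± 0.14). Col20a1 was at 4.56 ± 1.10 in artery and 3.32 ± 0.562 in ventricle (0.35 ± 0.15).

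The RNAs of type VI chains differed by unequal amounts. Of its 6 chains, 3 were higher and 1 lower in artery. Col6a3 (ENSMUSG00000048126, chr1:90765923-90843971), the long α3 chain, had 1414, 1561, 1655, 981, 1045 and 950.4 in artery 1 to 6, against 373, 217, 238, 271, 237 and 239 in ventricle 1 to 6. The lowest artery library was above the highest ventricle library by more than a factor of 2, and ventricle 1 was the highest of its group. The ratio of means was 4.83 and the difference 2.25 ± 0.17 (adjusted p = 7.44e-07, limma), with 2.12 within lane 2 and 2.67 within lane 1.

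The constant partners of Col6a3 in the trimer differed by far less. Col6a1, the α1 chain, had 1824, 1592, 2018, 1596, 1347 and 1215 in artery and 1162, 876, 1118, 1021, 879.6 and 961 in ventricle, groups that did not overlap (0.66 ± 0.14, adjusted p = 0.00307, limma). Col6a2, the α2 chain, had 1732, 1491, 1930.0, 1795, 1224 and 1150.2 in artery and 1380.0, 1023, 1422, 1268, 1125 and 1269 in ventricle, with overlap (0.30 ± 0.15, adjusted p = 0.161, limma). Per kilobase, Col6a3 was at 125 ± 30.96 in artery and 25.97 ± 5.63 in ventricle, and Col6a1 was at 390 in artery and 245 in ventricle.

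The chains that can take the place of α3 in mouse type VI went different ways. Col6a6 was at 823 ± 159 in artery and 578 ± 97.2 in ventricle (0.50 ± 0.16, adjusted p = 0.0343, limma), a call that was lost with the litter as a block (adjusted p = 0.0551, limma) and in 5 of 8 omissions. Col6a5 was at 30.7 ± 9.80 in artery and 44.9 ± 22.7 in ventricle and did not pass (-0.44 ± 0.30). Col6a4 was at 1.42 ± 0.858 in artery and 3.03 ± 0.563 in ventricle, lower by -0.82 ± 0.25 (adjusted p = 0.0272, limma). It had 0 reads in artery 1, the library with the fewest reads, its call was lost in 4 of 8 omissions, and edgeR did not call it (adjusted p = 0.108). Col6a4, Col6a5 and Col6a6 lie side by side on chromosome 9 on the same strand, with facing ends 28811 and 27918 bases apart.

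The Col6a3 promoter is shown because Col6a3 had the largest difference among the type VI chains. Its window held none of the letters searched, and neither did the Col6a1 window.
Col6a3 (chr1:90843922-90844221, minus strand): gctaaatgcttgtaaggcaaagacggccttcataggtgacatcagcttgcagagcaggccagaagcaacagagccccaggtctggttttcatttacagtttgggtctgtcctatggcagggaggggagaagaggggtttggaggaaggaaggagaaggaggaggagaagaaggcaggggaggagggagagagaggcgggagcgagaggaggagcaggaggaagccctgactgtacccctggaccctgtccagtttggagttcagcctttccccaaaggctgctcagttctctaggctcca

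Type IV collagen forms the sheet of basement membranes. Of its 6 chains, 1 passed as higher in artery and 0 as lower, and the class median was 0.02. Col4a1, the α1 chain of basement membranes throughout the body, had 2042, 2129, 2186, 2203, 1138 and 1481 in artery and 1939.7, 1778, 1808, 1486, 1387 and 1451 in ventricle. Its partner Col4a2 had 1161, 1169, 1174, 1344, 573 and 787 in artery and 1159.8, 1059, 1172, 948, 845 and 940.2 in ventricle. Artery 5 and 6 were low for both chains and the other artery libraries high, so the groups overlapped (Col4a1 0.15 ± 0.17, Col4a2 -0.03 ± 0.19).

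Col4a6 (ENSMUSG00000031273, chrX:141165403-141474076), a chain of smooth muscle basement membranes, had 95.2, 78.8, 70.7, 62.9, 60.7 and 55.1 in artery and 44.8, 39.0, 45.8, 46.5, 41.2 and 43.0 in ventricle. The groups did not overlap, and the difference was 0.67 ± 0.12 (adjusted p = 0.00112, limma). Col4a5, which joins it in a trimer, was at 266 ± 36.4 in artery and 251 ± 13.9 in ventricle (0.08 ± 0.10). Col4a3 was at 27.98 ± 10.3 in artery and 32.1 ± 3.48 in ventricle, and Col4a4 at 72.5 ± 26.4 in artery and 90.7 ± 14.5 in ventricle. These partners of the kidney filter did not pass, but without artery 4, their highest artery library, both were lower in artery (Col4a3 by -0.41, adjusted p = 0.0328, and Col4a4 by -0.53, adjusted p = 0.014, limma).

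Type IV genes lie head to head in pairs and start from shared or neighbouring promoters. Col4a1 and Col4a2 overlap on chromosome 8, with starts 21 bases apart. Col4a3 and Col4a4 start 72 bases apart on chromosome 1, and Col4a5 and Col4a6 start 1309 bases apart on the X chromosome. The windows of the first and the last of these pairs are shown because neither chain of the first passed the test and Col4a6 of the last did.
Col4a1, with the Col4a2 start on the other strand (chr8:11312777-11313076, minus strand): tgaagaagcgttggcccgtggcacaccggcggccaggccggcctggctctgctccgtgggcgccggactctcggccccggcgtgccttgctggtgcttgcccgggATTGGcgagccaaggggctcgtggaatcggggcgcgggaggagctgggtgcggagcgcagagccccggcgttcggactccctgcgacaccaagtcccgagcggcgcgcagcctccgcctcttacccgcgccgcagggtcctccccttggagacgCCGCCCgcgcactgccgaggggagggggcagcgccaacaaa
Col4a5 (chrX:141475169-141475468, plus strand): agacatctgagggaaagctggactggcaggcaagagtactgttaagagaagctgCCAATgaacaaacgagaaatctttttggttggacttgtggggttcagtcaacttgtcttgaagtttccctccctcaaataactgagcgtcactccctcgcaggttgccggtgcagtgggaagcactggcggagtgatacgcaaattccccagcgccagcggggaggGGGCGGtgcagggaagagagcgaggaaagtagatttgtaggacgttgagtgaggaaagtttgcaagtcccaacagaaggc
Col4a6 (chrX:141474027-141474326, minus strand): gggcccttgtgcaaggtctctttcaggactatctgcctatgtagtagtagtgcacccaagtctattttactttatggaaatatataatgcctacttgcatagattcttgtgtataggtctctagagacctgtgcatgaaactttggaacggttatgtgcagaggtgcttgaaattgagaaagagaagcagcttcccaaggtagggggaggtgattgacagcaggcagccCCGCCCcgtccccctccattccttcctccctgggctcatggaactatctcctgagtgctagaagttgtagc
The Col4a1 window had a GC content of 74%, with a CCAAT box before the start and a GC box after it, both read on the other strand. Col4a5 had 52.7% GC with a CCAAT box and a GC box, and Col4a6 had 48.3% GC with a GC box alone.

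Partner chains were then set against each other within each library, which removes the scaling of libraries. A two-sided exact permutation test over 924 assignments, whose smallest p is 0.002165, was run on the log2 ratio of 10 pairs with adjustment over them, and 7 passed. The ratios use the values without the added 1, so they do not equal differences between the log2(value + 1) results above. The scales part most for chains with low values, such as Col9a1 in ventricle. Col6a3 to Col6a1 was at a ratio of 0.791 ± 0.117 in artery and 0.261 ± 0.0356 in ventricle, which is 1.60 higher on the log2 scale and higher in 6 of 6 litters (adjusted p = 0.00433, exact). Col9a1 to Col9a2 was at 0.515 ± 0.248 in artery and 0.052 ± 0.0832 in ventricle (4.14 on the log2 scale), and Col11a1 to Col11a2 at 3.65 ± 2.58 in artery and 12.01 ± 1.81 in ventricle (-2.05). Col4a5 to Col4a6 was at 3.87 ± 0.651 in artery and 5.81 ± 0.490 in ventricle (-0.60), and Col6a1 to Col6a2 at 1.03 ± 0.0744 in artery and 0.805 ± 0.038 in ventricle (0.36). None of these 5 ratios overlapped between the groups, and all 5 had the same adjusted p (0.00433, exact).

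Smaller shifts passed in the paired main chains of types IV and V. Col4a1 to Col4a2 was at 1.82 ± 0.118 in artery and 1.61 ± 0.0637 in ventricle (0.18 on the log2 scale, adjusted p = 0.0144, exact), although neither chain passed alone. Col5a1 to Col5a2 was at 2.19 ± 0.236 in artery and 1.81 ± 0.149 in ventricle (0.27, adjusted p = 0.01855, exact), a call lost without litter 2 or 4. Col1a1 to Col1a2 was at 1.47 ± 0.152 in artery and 1.61 ± 0.0541 in ventricle (-0.14, adjusted p = 0.0758, exact) and passed when litter 1 was left out. Neither Col8a1 to Col8a2 (adjusted p = 0.604, exact) nor Col9a2 to Col9a3 (adjusted p = 0.783, exact) passed. Within lane 2, with 3 artery and 4 ventricle libraries, the log2 difference of Col6a3 to Col6a1 was 1.5 and that of Col4a5 to Col4a6 was -0.52, but such a comparison is too small to pass after adjustment.

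**Figure D4:**
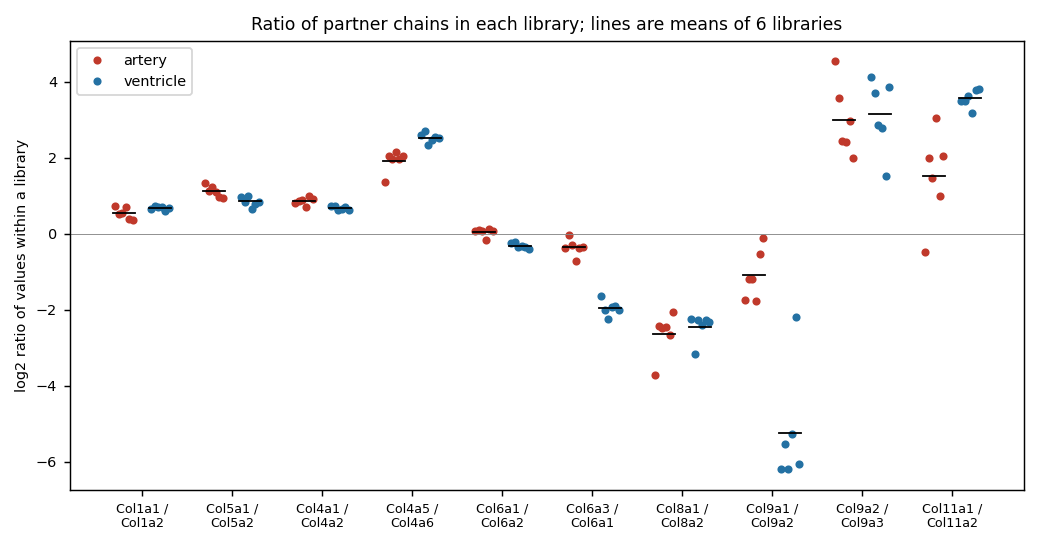
Log2 ratio of the values of partner chains within each library for the 10 pairs, artery left (red) and ventricle right (blue), with lines for the mean of 6 libraries. The groups are apart for Col4a5/Col4a6, Col6a1/Col6a2, Col6a3/Col6a1, Col9a1/Col9a2 and Col11a1/Col11a2, and overlap for the other pairs.

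Multiplexins, which hold the endostatin-like fragments at the edge of basement membranes, did not pass. Col18a1 was at 453 ± 105 in artery and 484 ± 32.7 in ventricle (-0.13 ± 0.15), and Col15a1 at 149 ± 28.9 in artery and 146 ± 31.9 in ventricle (0.03 ± 0.16). The short chain network collagens of type VIII, found in vessel walls and the cornea, did not pass either. Col8a1 was at 11.2 ± 3.96 in artery and 15.9 ± 4.25 in ventricle (-0.49 ± 0.25). Col8a2 was at 66.8 ± 15.1 in artery and 83.9 ± 10.3 in ventricle (-0.34 ± 0.14), lower within 6 of 6 litters, and it passed with the litter as a block (adjusted p = 0.0272, limma) and without artery 4.

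Transmembrane collagens split. Col23a1 (ENSMUSG00000063564, chr11:51289920-51583918) had 29.2, 18.7, 27.4, 19.0, 18.3 and 19.8 in artery and 8.45, 5.14, 7.96, 5.44, 10.6 and 5.12 in ventricle, with no overlap (difference 1.53 ± 0.18, adjusted p = 4.79e-05, limma). Col13a1, a chain of neuromuscular junctions, was at 5.29 ± 1.38 in artery and 8.33 ± 1.48 in ventricle, lower by -0.58 ± 0.17 (adjusted p = 0.0206, limma), a call lost without litter 2 or 5. Col17a1, a hemidesmosome protein, was at 2.96 ± 1.56 in artery and 1.496 ± 0.409 in ventricle, and did not pass (0.61 ± 0.22, adjusted p = 0.0626, limma), though it passed without artery 4 and with edgeR and DESeq2. Col25a1 was at 2.01 ± 0.465 in artery and 3.01 ± 0.593 in ventricle (-0.41 ± 0.15, adjusted p = 0.0574, limma) and passed as lower without artery 4.

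The largest difference toward the ventricle was that of Col26a1 (ENSMUSG00000004415, chr5:136741759-136883209), a secreted collagen first described in mouse testis and ovary. It had 40.8, 31.3, 36.3, 106, 35.6 and 23.9 in artery 1 to 6, against 159.7, 124, 180.4, 151, 148 and 116 in ventricle 1 to 6. The groups did not overlap, but artery 4 came close to the lowest ventricle library while the other 5 artery libraries stayed under 41. The difference was -1.82 ± 0.27 (adjusted p = 0.000277, limma), -0.50 within litter 4 and between -2.28 and -1.94 within the other litters, and it was -2.10 without artery 4. Col7a1, the anchoring fibril that ties epithelium to the tissue below, was at 6.66 ± 2.73 in artery and 11.98 ± 1.66 in ventricle, lower by -0.82 ± 0.21 (adjusted p = 0.0102, limma) in 6 of 6 litters. Artery 4 was again the highest artery library, at 11.3.

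**Figure D5:**
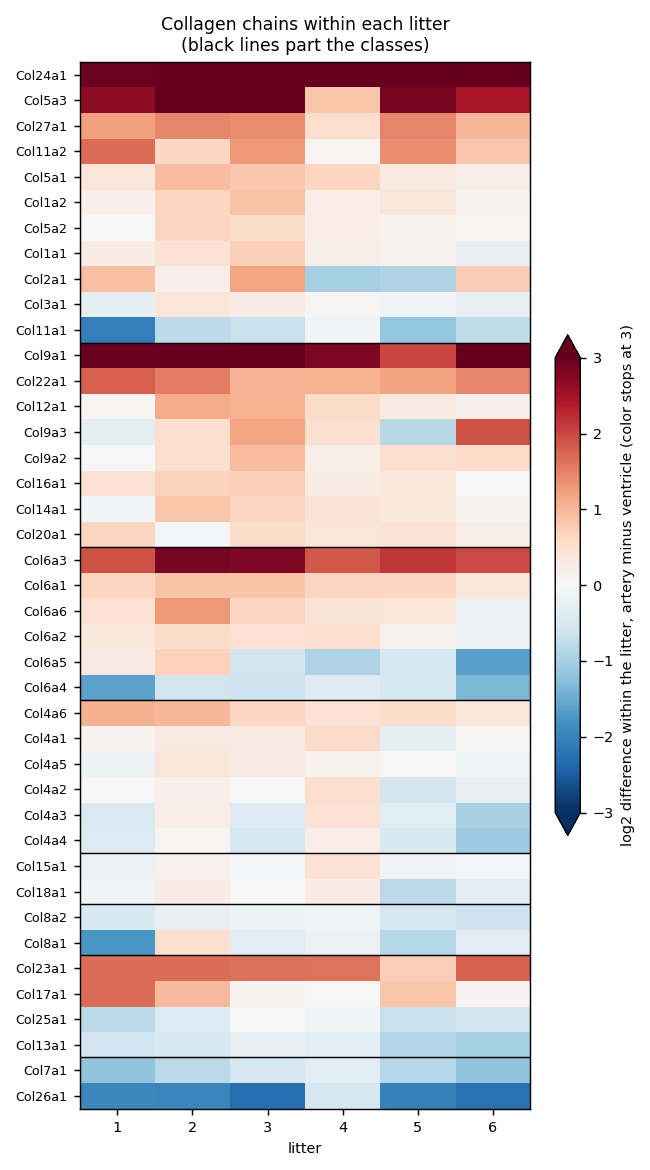
Log2 difference of each chain within each of the 6 litters, artery minus ventricle, on a color scale that stops at 3 in both directions, with chains in rows by class. Col24a1, Col6a3 and Col9a1 are red in every litter, Col26a1 is blue in every litter with its palest cell in litter 4, and Col5a3 is likewise palest in litter 4.

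Artery 4 was the artery library nearest to the ventricle mean for 7 of the 19 chains past the test and artery 6 for 9, while artery 2 and 3 were so for 0. The directions differed. Artery 4 was nearest for every chain called lower (Col26a1, Col7a1, Col6a4, Col11a1 and Col13a1), and artery 6 only for chains called higher. Artery 6 also had the lowest summed collagen value of its group (47332). The share over all called genes was not computed. Artery 4 also had the highest epicardial and mesothelial marker sum of its group, and artery 6 had the highest blood marker sum. Whether these markers have a part in the collagen values of those libraries was not tested. Libraries were also compared within the sequencing lanes that the labels name. Within lane 2 (artery 2, 4 and 5, and ventricle 1, 2, 4 and 5) the calls were Col24a1, Col9a1, Col5a3, Col6a3, Col23a1, Col22a1, Col27a1, Col4a6 and Col6a1 as higher and Col26a1 (-1.54) as lower. Within lane 1 (artery 1 and 3, and ventricle 3 and 6) Col24a1, Col5a3, Col6a3 and Col26a1 (-1.89) passed. All 19 called chains kept their sign in both lanes. Within 6 of 6 litters 16 members were higher in artery (39%, against 13.2% of all genes) and 6 were lower (14.6%, against 13.9%).

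Genes that fold, modify, cut and crosslink collagen were higher in artery more often than lower. Among 33 tested genes, the test called 15 higher and 3 lower and left 15 uncalled, with a median difference of 0.32, against 12.2% of all genes higher and 11.8% lower. The largest was Pcolce2, an enhancer of procollagen cleavage, at 11.999 ± 4.33 in artery and 0.349 ± 0.23 in ventricle (3.21, adjusted p = 4.73e-07, limma). Adamts2, the protease that removes the amino end of fibrillar procollagens, was at 614 ± 127 in artery and 241 ± 37.3 in ventricle (1.33), and the prolyl hydroxylase subunit P4ha3 at 50.5 ± 11.2 in artery and 20.2 ± 4.27 in ventricle (1.28). The lower genes were Tll1, a protease of the other procollagen end (13.4 ± 12.8 in artery and 34.2 ± 11.1 in ventricle, -1.58), the collagen glycosyltransferase Colgalt2 (-0.72) and Leprel1 (-0.41), a prolyl hydroxylase of type IV collagen.

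For 8 tested collagen receptors the calls were 4 higher and 1 lower, with 3 uncalled and a median of 0.38. Of all genes, 12.2% were higher and 11.8% lower. The integrin subunit Itga10, a receptor of cartilage cells, was at 16.9 ± 5.43 in artery and 5.18 ± 1.49 in ventricle (1.52, adjusted p = 0.000178, limma). Ddr2, the discoidin receptor for fibrillar collagens, was at 192 ± 52.3 in artery and 80.3 ± 13.1 in ventricle (1.22), and the fibroblast integrin subunit Itga11 at 15.8 ± 4.43 in artery and 6.03 ± 1.70 in ventricle (1.26). Ddr1, the discoidin receptor of epithelia, was the lower one, at 206 ± 39.5 in artery and 283 ± 17.4 in ventricle (-0.47, adjusted p = 0.00866, limma).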

How the data were processed

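One table was deposited, with 12 libraries and 17637 genes, and its values are a normalized signal made by the authors. Its tool and gene filter were not given in the sources used here, nor was strand use. Per the submitters' processing notes the tools include RSEM 1.2.3, cutadapt 1.3 and CASAVA 1.8.2, with GRCm38 as the build, and per the labels' protocols libraries were polyA, single reads of 50 bases. The values were (whole reads + 0.5) scaled as CPM to an adjusted library size, since 100% of 211644 values gave whole reads within 0.02. Without strand, reads of opposite-strand partners (which overlap exons of Col22a1, Col5a1, Col6a6, Col15a1 and others) cannot be told apart.

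Genes with a mean of at least 1 (14779) were tested with limma 3.58.1 in R 4.3.3, trended and robust, on log2(value + 1), over 6 artery and 6 ventricle libraries, with Benjamini-Hochberg adjustment and a threshold of 0.05. By the labels the 2 libraries of a number share a litter. Their deviations from the group means had a mean correlation of 0.215, over 0.1 in 5 of 6 litters and -0.014 in litter 1. Artery and ventricle libraries of different litters had a mean of -0.043. Of the 6 artery libraries, 3 matched the ventricle library of their own litter best. The litter block was an alternative. edgeR 4.0.16 and DESeq2 1.42.0 ran on the recovered reads. The script was tested on simulated data. Every pair of libraries differed beyond sampling noise (chi-square per degree of freedom of 10.1 or more). Lanes are those in the library descriptions, and lane 4 held artery 6 alone. Coordinates and lengths are from GENCODE M21 (GRCm38).

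Members and lists were chosen with earlier results of these data known. Values in every library are given for chains past the test with at least a 2-fold difference and for types I, III, IV (Col4a1, Col4a2) and VI (Col6a1, Col6a2, Col6a3). From other lists up to 3 genes per direction with the smallest p are named. Col4a6 in every library and Sox9 were added after their values were seen. Litters are separate pools, and p-values cover the variation among them. No p was computed for sums or shares over members.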

Additional observations from a re-analysis of the deposited data

Results flagged for a closer look

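In 5 of 82 groups of 6 libraries (41 chains in artery and in ventricle), 1 library lay far from the others, and chance flags about 1 in 20 such groups. Col26a1 was at 106.4 in artery 4, against 23.9 to 40.8 in the other artery libraries. Col6a3 was at 373 in ventricle 1, against 217 to 271 in the other ventricle libraries. Col6a6 was at 390.7 in ventricle 2, against 570.1 to 669 in the others, and its call was lost without litter 2 (difference 0.34). Col9a1 was at 6.775 in ventricle 5, against 0.351 to 1.00 in the others. Col5a3 was at 29.62 in ventricle 4, against 9.24 to 14.8 in the others. The calls of Col26a1, Col6a3, Col9a1 and Col5a3 held in each omission of 1 litter and without artery 1 or 4.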

How the results depend on the processing

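Over all chains and settings, 855 differences were recomputed: 769 stayed on their side of the threshold or were never called, 58 lost the call, 28 gained it, and 0 called differences changed sign. Counts of chains higher in artery (14), of chains lower (5) and of all genes called (3556) moved by over 1.5 times only in subsets of libraries. Within lane 2 they were 9, 1 and 1362, and within lane 1, with 2 libraries per group, 3, 1 and 320. Leaving out 1 litter, artery 1 or artery 4 gave 10 to 15 higher, 2 to 9 lower and 2069 to 4291 genes. Without artery 1 and 4 together 9 were lower. The other artery libraries, artery 6 included, were left out only together with their litter. The lane subsets hold fewer libraries, and the cause was not otherwise tested. Of 10 partner ratios 7 passed, 6 to 8 with 1 litter left out and 0 within lane 2, where the design cannot pass after adjustment. With the litter as a replicate block, 14 chains were higher, 6 lower and 3619 genes were called; Col12a1 and Col8a2 gained the call, Col6a6 lost it, and the 7 ratios passed. On the recovered reads edgeR called 3430 genes (16 chains higher, 4 lower) and DESeq2 called 4170 (18 higher, 5 lower). The lane covariate leaves artery 6 without weight. Col6a4, at 0 reads in artery 1, is among the chains with few reads.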

Other observations

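The spread between libraries was wider in artery than in ventricle for 33 of the 41 chains, with a median coefficient of variation of 24.7% in artery and 16.9% in ventricle. Col26a1 (66.2% in artery and 16.01% in ventricle) and Col11a1 (51.0% in artery and 13.1% in ventricle) were among these. The same share over all genes was not computed, so the wider spread cannot be called particular to collagen chains. Over the genes of the table with enough reads, chi-square per degree of freedom was 28.8 to 73.0 between artery libraries. Between ventricle libraries it was 10.15 to 59.0. Ventricle 5 was the highest ventricle library for both Col9a1 (6.77) and Col9a3 (10.6), and its Col2a1 (3.54) was below that of ventricle 4 alone (3.68). Of the cartilage markers, Hapln1 was at 9.28 in ventricle 5 and at 3.93 to 4.98 in the other ventricle libraries, and Acan at 1.87 in ventricle 5 and at 0.457 to 1.68 in the others. The cartilage markers Sox9, Comp and Cnmd were not highest in ventricle 5. Sox9 was at 35.5 there and 40.8 in ventricle 1, and Comp at 1.25 there and 2.70 in ventricle 1. Cnmd was at 2.59 in ventricle 5 and 5.44 in ventricle 4. The part of these markers in the Col9a1 value of ventricle 5 was not tested.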
